A study of Mus musculus with 28 samples.

Results

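Retinas of mice given RGFP966 after crush of the optic nerve were compared with crushed retinas of mice given vehicle, across all genes. RGFP966 is an inhibitor of the histone deacetylase HDAC3, and the series, whose title names chemicals that modulate reactive astrocytes, sets it against vehicle in injured eyes. Of 28 labelled samples, 13 entered it: 7 crushed (ONC) retinas of RGFP966 mice (3 females, 4 males) and 6 crushed retinas of vehicle mice (2 females, 4 males). Of the 35999 genes in the table, 15773 with a mean of at least 10 normalized counts were tested. Mice of the RGFP966 group had the right optic nerve crushed and then received 10 mg/kg RGFP966 intraperitoneally every day for 7 days. Mice of the vehicle group had the same crush and daily vehicle injections. Retinas were taken 7 days after the crush. The uncrushed left retinas (CTRL), taken by their labels as the other eyes of the same 13 mice (7 RGFP966 and 6 vehicle), are set beside the crushed ones where stated. The labels give no strain, genotype or age. The crushed eye was the right one in every mouse, so eye side and crush cannot be told apart, and the drug was given to the whole animal at 1 dose and for 1 duration.

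HDAC3 removes acetyl groups from histones as the catalytic subunit of nuclear corepressor complexes, which nuclear receptors and other transcription factors bring to chromatin. Crushing the optic nerve severs the axons of retinal ganglion cells, the output neurons of the retina, and over the following days many of these cells die. Astrocytes on the inner retinal surface and Müller glia, which span the retina, become reactive: they make more of the filament protein GFAP and of acute-phase, complement and interferon-response proteins, while microglia multiply and take up debris. Libraries were made from polyadenylated RNA of whole retina, so a lower value can come from fewer cells of a type or from less RNA per cell, and these cannot be told apart.

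No gene passed the test between RGFP966 and vehicle in crushed retinas (limma, Benjamini-Hochberg adjusted p under 0.05): 0 of 15773 genes, or 0%, and the smallest adjusted p was 0.9998. At an unadjusted p under 0.05 there were 403 genes, 2.55% of those tested, where p-values spread evenly would put 5%. Of these, 227 (1.44%) were lower and 176 (1.12%) were higher in RGFP966 retinas. The median difference over all genes was -0.004 on the log2 scale, with 7649 genes higher and 8124 (51.5%) lower in RGFP966 retinas. All differences given are RGFP966 minus vehicle on the log2(normalized count + 1) scale with their standard error (SE), and none of them passed the test unless stated. Their 95% intervals are not adjusted for the number of genes. The groups overlapped for every gene described except the 5 that are named for it. The same 26 libraries gave 737 genes that changed with crush in RGFP966 mice and 842 in vehicle mice (limma, adjusted p under 0.05).

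**Figure D1:**
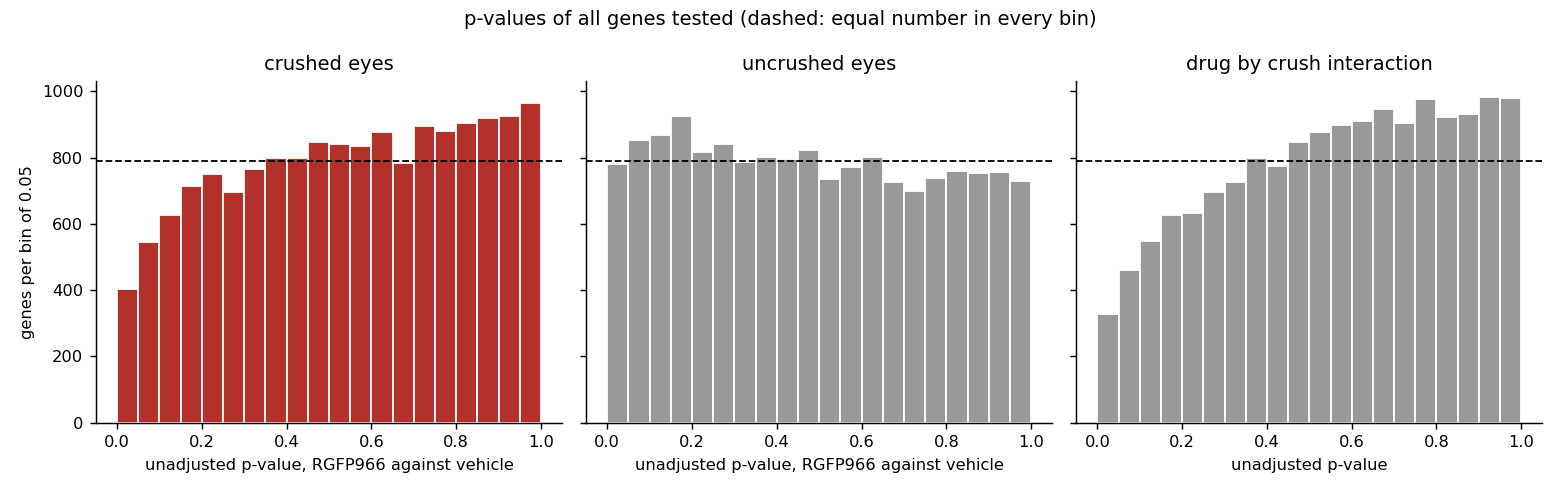
Number of genes (vertical axis) in each bin of unadjusted p-value (horizontal axis) for RGFP966 against vehicle in crushed eyes, in uncrushed eyes and for the drug by crush interaction, over 15773 genes. The dashed line marks an equal number in each bin; the bin nearest to 0 holds 403, 782 and 327 genes.

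The precision of the comparison was uneven between genes. The SE of the log2 difference had a median of 0.13 over all genes, with 0.073 at the 10th and 0.35 at the 90th percentile. For 14279 genes (90.5%) the whole 95% interval lay within 1 log2 unit, or 2-fold, in either direction. The estimate itself lay beyond 1 log2 unit for 80 genes. Where an interval reached past 1 log2 unit, it did not exclude a 2-fold difference in that direction. Among the 51 gene lists, the median of 25 changed sign when 1 crushed retina was left out, all of them lists with a median no farther from 0 than 0.11.

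The injury itself was plain in both drug groups, by the change from uncrushed to crushed eyes. Gfap rose by 2.04 log2 units in RGFP966 mice and by 2.68 in vehicle mice (limma, adjusted p = 1.5e-08 and 5.6e-10). The regeneration-linked Sprr1a rose by 5.81 in RGFP966 and 6.09 in vehicle mice, and Fgf2 by 1.85 and 2.16. Oasl2, of the interferon response, rose by 1.499 in RGFP966 and 2.03 in vehicle mice, and Serping1 by 1.59 and 1.64. The ganglion cell gene Pou4f1 changed by -2.69 in RGFP966 and -2.38 in vehicle mice, Nefl by -1.99 and -1.91 and Rbpms by -1.69 and -1.73, all past the threshold. Beside these changes, the drug difference in crushed eyes was -0.44 ± 0.20 for Gfap, -0.31 ± 0.47 for Sprr1a and 0.012 ± 0.34 for Pou4f1.

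The libraries carried the marks of whole retina. Rod, cone, bipolar, amacrine, ganglion cell and Müller glia markers were present in all 13, and the normalized counts summed to 17691733 to 19477758 (median 18017306) in RGFP966 retinas and 17714748 to 18885816 (median 18153969) in vehicle retinas. Summed rod markers, for example, came to 1448400 to 2113800 (median 1769700) in RGFP966 retinas and 1538200 to 2040700 (median 1841100) in vehicle retinas. Of the markers of other tissue, the 18 lens genes summed to 687 to 3560.2 (median 1399.6) in RGFP966 retinas and 719.5 to 2121 (median 971) in vehicle retinas, 6 of them being at 0 in at least 1 library and none in all. Summed red blood cell markers ranged over 256 to 3948 (median 683) in RGFP966 retinas and 217 to 6417 (median 725) in vehicle retinas, and pigment epithelium markers over 509 to 4497 (median 1819) in RGFP966 retinas and 506 to 5926 (median 1763) in vehicle retinas. Along the leading principal component of the 13 crushed retinas (27.1% of the variance) the library RGFP966 ONC male C stood at 55.9, against -34.0 to 13.5 for the other RGFP966 retinas and -24.8 to 35.0 for vehicle retinas. Without it no gene passed either (727 at an unadjusted p under 0.05).

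Transcripts of the drug's target and its partners lay near 0, with Tbl1xr1 the farthest from it. Hdac3 (mm10 chromosome 18, 37935844 to 37955016) ranged over 945 to 1579 (median 1481) normalized counts in RGFP966 retinas and 1096 to 1587 (median 1282) in vehicle retinas, and the ranges overlapped almost wholly. Its difference was -0.0049 ± 0.10 (95% interval -0.21 to 0.20). A catalytic inhibitor need not alter the transcript of its target, so this value does not measure whether the drug acted in the retina, and no other measure of its action was used here. Ncor1 (NCoR), a scaffold that holds HDAC3 and switches on its activity, stood at -0.031 ± 0.074 (95% interval -0.18 to 0.12). Tbl1xr1, a subunit that recruits and exchanges corepressors, was at 318 to 771 (median 433) normalized counts in RGFP966 retinas and 443 to 855 (median 583) in vehicle retinas. For Tbl1xr1 5 of 7 RGFP966 retinas lay below all vehicle retinas, a difference of -0.36 ± 0.21 (95% interval -0.79 to 0.066). Over the 6 genes of the complex the median difference was -0.011, and all 6 intervals lay within 1 log2 unit.

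The lists of other enzymes and readers of histone acetylation had medians near 0. The 10 other histone deacetylases had a median of 0.014 and a range of -0.09 to 0.16, with Hdac6, a largely cytoplasmic deacetylase of tubulin, at 0.16 ± 0.13 and the class IIa member Hdac5 at 0.085 ± 0.077. The 12 acetyltransferases and acetyl-lysine readers had a median of -0.03, with the acetyltransferases Kat2b at -0.17 ± 0.085 and Kat5 at -0.10 ± 0.057 and the bromodomain protein Brd2 at -0.11 ± 0.056. Of 18 nuclear receptors 10 were lower and the median was -0.013. Ppard, the fatty acid sensor PPAR-delta, was at 1180.0 to 1459 (median 1384) normalized counts in RGFP966 retinas and 1355 to 1702 (median 1471) in vehicle retinas (-0.14 ± 0.066), with 4 of 6 vehicle retinas above all RGFP966 retinas. Rarg, a retinoic acid receptor, stood at -0.27 ± 0.26 and the orphan receptor Nr2f1 at 0.13 ± 0.13. Genes that HDAC3 restrains in the brain during memory formation had a median of -0.01 over 8 genes. The orphan receptor Nr4a3 was the member farthest from 0, with 18.5 to 42.4 (median 29.5) normalized counts in RGFP966 retinas and 21.2 to 70.5 (median 63.2) in vehicle retinas and a difference of -0.62 ± 0.32 (95% interval -1.27 to 0.033). Arc, a synaptic immediate early gene, was at -0.42 ± 0.30 and Nr4a1 at 0.15 ± 0.12. The 15 circadian clock genes, some of them repressed through HDAC3 by REV-ERB receptors, had a median of -0.02, with Cry2 at -0.11 ± 0.11 and Per3 at 0.11 ± 0.12.

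Reactive glial genes were lower on average in RGFP966 retinas, and none passed the test. Of the pan-reactive astrocyte genes, those that rise in astrocytes after several kinds of injury, 11 of 12 were lower, with a median difference of -0.33 against -0.004 over all genes. Of these 12, 1 was lower at an unadjusted p under 0.05, which 2.55% of all genes reached in either direction. Gfap, the glial intermediate filament (mm10 chromosome 11, 102887336 to 102900912), ranged over 908 to 1356 (median 1108) normalized counts in RGFP966 retinas and 1085 to 2131 (median 1524) in vehicle retinas. Its 2 lowest vehicle retinas lay among the RGFP966 retinas and the other 4 above them all, a difference of -0.44 ± 0.20 (95% interval -0.84 to -0.036) with an adjusted p of 0.9998. Lcn2, an iron-binding acute-phase protein of reactive astrocytes, was at 80.0 to 119.7 (median 102) normalized counts in RGFP966 retinas and 81.3 to 264 (median 135) in vehicle retinas; the upper 3 vehicle retinas lay above all RGFP966 retinas and the lower 3 among them (-0.48 ± 0.24, 95% interval -0.98 to 0.0091). Serpina3n, a protease inhibitor, was at 181 to 523 (median 365) normalized counts in RGFP966 retinas and 264 to 861 (median 540.4) in vehicle retinas. For Serpina3n the groups overlapped and the difference was -0.68 ± 0.43 (95% interval -1.56 to 0.20). The copper-carrying ferroxidase Cp stood at -0.22 ± 0.12 (95% interval -0.46 to 0.015) and the filament gene Vim at -0.12 ± 0.10 (95% interval -0.32 to 0.09). Without the vehicle retina ONC male B, which held the highest Gfap value, the list median was -0.21 and the difference of Gfap -0.33, and without vehicle ONC male D that of Lcn2 was -0.30.

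**Figure D2:**
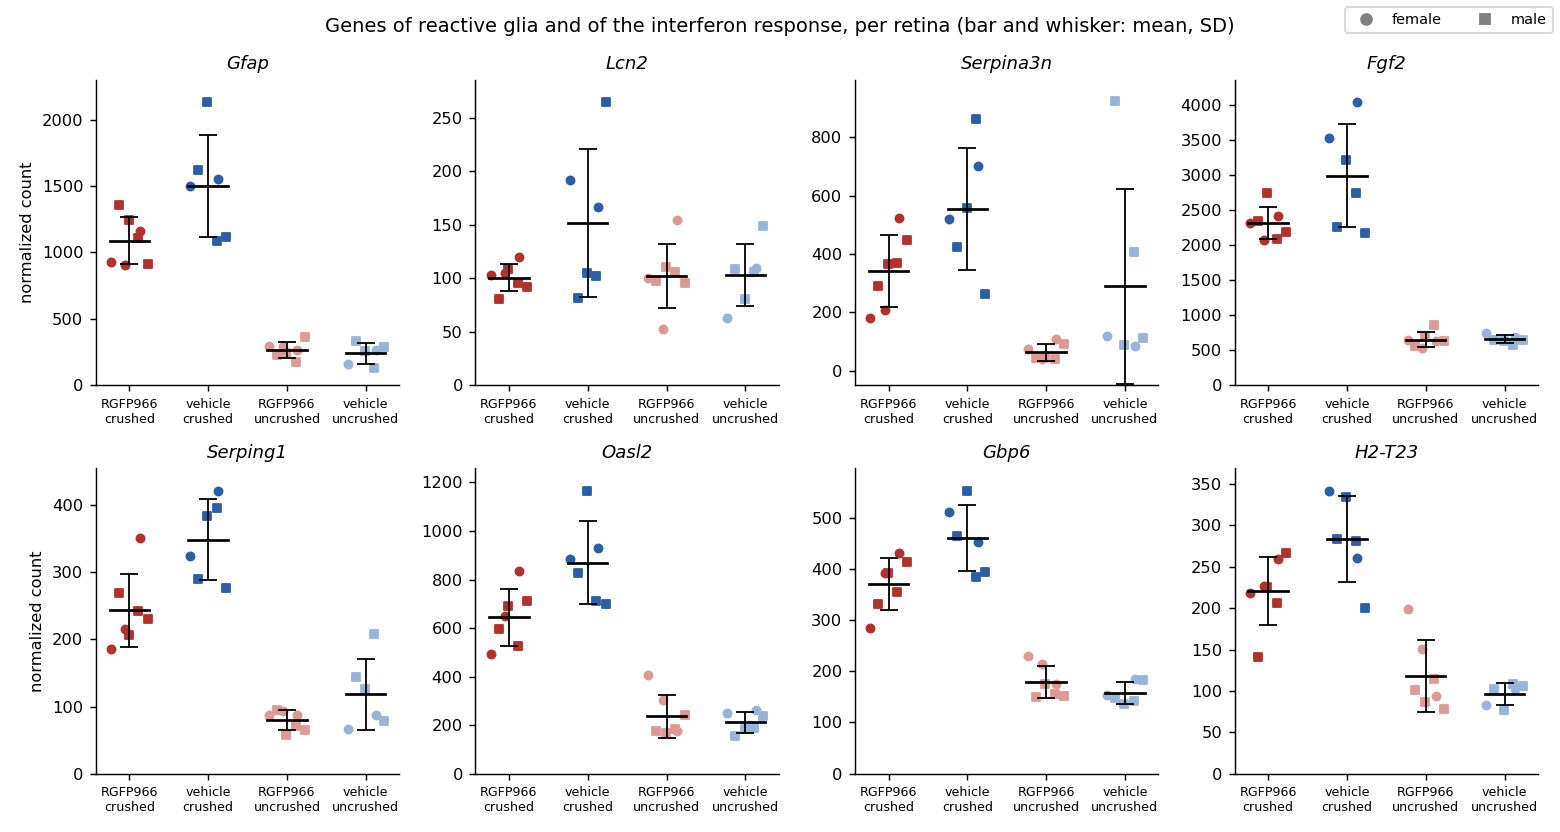
Normalized count of 8 genes in each retina (vertical axis from 0, or from just below it for Serpina3n, whose mean minus SD is negative in uncrushed vehicle retinas), with RGFP966 and vehicle crushed retinas on the left and uncrushed ones on the right; circles are females, squares males, the bar and whiskers the mean and SD (n = 7, 6, 7 and 6). The crushed groups overlap in every panel and the highest crushed vehicle retina lies above the highest crushed RGFP966 retina, as for Gfap, with a highest value of 1356 in RGFP966 and 2131 in vehicle retinas.

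Of 12 neuroinflammatory reactive astrocyte genes 10 were lower, with a median of -0.13 (-0.083 without vehicle ONC female A). At an unadjusted p under 0.05 there were 2 lower genes (2.55% of all genes in either direction). Serping1, the C1 inhibitor that restrains complement and contact proteases (mm10 chromosome 2, 84765387 to 84775444), ranged over 186 to 351 (median 231) normalized counts in RGFP966 retinas and 276 to 421 (median 354) in vehicle retinas. All but 1 of the RGFP966 retinas lay below every vehicle retina (-0.53 ± 0.20, 95% interval -0.95 to -0.10). H2-T23, a nonclassical MHC class I molecule, was at 141 to 266 (median 226) normalized counts in RGFP966 retinas and 201 to 342 (median 283) in vehicle retinas, with 4 vehicle retinas above all RGFP966 retinas (-0.39 ± 0.17, 95% interval -0.75 to -0.031). C3, the central complement component often used as a marker of this state, was at 18 to 153 (median 51.4) normalized counts in RGFP966 retinas and 44.4 to 144 (median 75.5) in vehicle retinas. Its RGFP966 retinas reached from below to above the whole vehicle range, and with a difference of -0.55 ± 0.49 (95% interval -1.55 to 0.45) a 2-fold lower level could not be told from none. Gbp2, an interferon-induced GTPase, was at 133 to 205 (median 198) normalized counts in RGFP966 retinas and 159.7 to 405 (median 205) in vehicle retinas (-0.24 ± 0.18, 95% interval -0.60 to 0.12), and the glucocorticoid-induced chaperone Fkbp5 at -0.16 ± 0.11. The 9 ischaemia-type genes had a median of -0.12 with 6 lower (-0.22 without vehicle ONC male A and -0.034 without vehicle ONC male C). Among them Tm4sf1 was at 0.39 ± 0.25, the endotoxin co-receptor Cd14 at -0.29 ± 0.27 and the pentraxin Ptx3 at -0.36 ± 0.36.

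Genes of Müller cells gave a similar picture. Of 23 gliosis genes 17 were lower (median -0.18, and -0.12 without RGFP966 ONC male C). Of them 1 was lower at an unadjusted p under 0.05 (2.55% of all genes in either direction). That gene was Fgf2, a growth factor that protects photoreceptors (mm10 chromosome 3, 37348346 to 37410108), at 2073 to 2739 (median 2321.9) normalized counts in RGFP966 retinas and 2171 to 4039 (median 2979) in vehicle retinas. The RGFP966 retinas were closely grouped, 4 vehicle retinas lay above all of them, and the difference was -0.35 ± 0.12 (95% interval -0.60 to -0.11). A2m, the broad protease trap alpha-2-macroglobulin, was at 309 to 396 (median 346) normalized counts in RGFP966 retinas and 367 to 732 (median 429) in vehicle retinas, with 6 of 7 RGFP966 retinas below every vehicle retina (-0.44 ± 0.24, 95% interval -0.93 to 0.049). Socs3, the feedback inhibitor of the gp130 and STAT3 pathway, was at -0.54 ± 0.33 (95% interval -1.22 to 0.15), whereas Stat3 itself stood at 0.048 ± 0.081 (95% interval -0.12 to 0.21), with 2394 to 2987 (median 2687) normalized counts in RGFP966 retinas and 2037 to 3153 (median 2602) in vehicle retinas. The metallothionein Mt3 was higher, 0.18 ± 0.11, with 5 RGFP966 retinas above all vehicle retinas. Of 17 Müller glia markers 13 were lower, with a median of -0.12 and every interval within 1 log2 unit; the secreted chaperone Clu was at -0.25 ± 0.12 (95% interval -0.50 to 0.00042), the lipid carrier Apoe at -0.27 ± 0.14 (95% interval -0.54 to 0.012) and the carbonic anhydrase Car14 at -0.15 ± 0.11. Of 8 retinal astrocyte markers 7 were lower (median -0.16; -0.25 without vehicle ONC male D and -0.10 without vehicle ONC male B), with the glutamate transporter Slc1a3 at -0.17 ± 0.14, the transcription factor Sox9 at -0.15 ± 0.11 and the calcium-binding S100b at -0.21 ± 0.21. Slc1a3 and Sox9 also stand in the Müller glia list, so the astrocyte list is not separate from it. Its 1 higher member was the transcription factor Pax2, at 0.022 ± 0.18. Summed Müller glia markers ranged over 80438 to 114510 (median 94191) in RGFP966 retinas and 83572 to 111350 (median 107070) in vehicle retinas, overlapping ranges with the lower median in RGFP966 retinas. The part of these markers in the differences of the reactive genes was not tested.

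Interferon-response genes were lower in most cases. Of 26, 23 were lower with a median of -0.21, and 2 were lower at an unadjusted p under 0.05 (2.55% of all genes in either direction). Ifi44, an interferon-induced cytoplasmic protein (mm10 chromosome 3, 151730922 to 151749960), was at 13.4 to 46.0 (median 16.6) normalized counts in RGFP966 retinas and 31.7 to 69.4 (median 46.2) in vehicle retinas. All but 1 of the RGFP966 retinas lay below every vehicle retina, at low counts, and the difference was -1.07 ± 0.37 (95% interval -1.82 to -0.31). Oasl2, an antiviral protein of the oligoadenylate synthetase family, was at 494 to 836 (median 652) normalized counts in RGFP966 retinas and 698 to 1164 (median 854) in vehicle retinas, with 5 RGFP966 retinas below all vehicle retinas (-0.46 ± 0.17, 95% interval -0.80 to -0.12). Irf7, the transcription factor that amplifies type I interferon, was at -0.23 ± 0.12 (95% interval -0.48 to 0.023). Of 13 interferon-induced GTPases, which attack vacuoles of intracellular pathogens, 11 were lower with a median of -0.20; Gbp6 was at 284 to 430.3 (median 391) normalized counts in RGFP966 retinas and 385 to 552 (median 458) in vehicle retinas (-0.32 ± 0.12, 95% interval -0.56 to -0.086), the groups overlapping. Gbp7 was at -0.37 ± 0.19 and Igtp at -0.34 ± 0.18. Of 14 MHC class I presentation genes 12 were lower (median -0.12), among them the class I transactivator Nlrc5 at -0.58 ± 0.45 (95% interval -1.51 to 0.34) and the peptide-loading chaperone Tapbp at -0.083 ± 0.071. Without vehicle ONC male B the medians were -0.14 for the interferon list and -0.084 for the GTPases, and without vehicle ONC female A that of MHC class I was -0.064. Some genes stand in more than 1 of these lists, as H2-T23 and Gbp2 do, and genes of a pathway vary together between mice, so the number of genes on 1 side of 0 is no count of independent observations.

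Microglia markers lay near 0. Of 17, 12 were lower and the median was -0.026 (-0.078 without vehicle ONC male C and 0.076 without vehicle ONC male D), and their summed counts were 5225 to 9277 (median 7395) in RGFP966 retinas and 5823 to 10390 (median 7106) in vehicle retinas. Aif1, the calcium-binding protein Iba1, ranged over 45.3 to 83.2 (median 59.5) normalized counts in RGFP966 retinas and 30.0 to 91.8 (median 44.5) in vehicle retinas (0.37 ± 0.33, 95% interval -0.31 to 1.05); 3 vehicle retinas lay below all RGFP966 retinas and 1 above them. The nucleotide receptor P2ry6 was at -0.22 ± 0.23 and the lysosomal membrane protein Laptm5 at -0.15 ± 0.18. Of 16 genes of disease-associated microglia 13 were lower (median -0.10; -0.035 without RGFP966 ONC male C). With 1 retina left out the number lower ran from 8 to 14. The list held the tetraspanin Cd9 at -0.17 ± 0.11 and the lysosomal protease Ctsd at 5486 to 7403 (median 6863) normalized counts in RGFP966 retinas and 6871 to 7905 (median 7264) in vehicle retinas. For Ctsd the groups overlapped and the difference was -0.10 ± 0.069 (95% interval -0.25 to 0.037). Of 15 complement genes 10 were lower (median -0.11; -0.00041 without vehicle ONC male D). C5ar1, the receptor for the C5a fragment, was low and variable at 8.40 to 25.8 (median 11.2) normalized counts in RGFP966 retinas and 11.8 to 77.0 (median 19.8) in vehicle retinas (-0.86 ± 0.58, 95% interval -2.04 to 0.33). Cd59a, which blocks the membrane attack complex, stood at 0.17 ± 0.087. MHC class II genes had a median of 0.025 over 7 genes (-0.35 without vehicle ONC male B) with wide intervals: H2-Aa was at -0.87 ± 0.72 (95% interval -2.35 to 0.61) and the invariant chain Cd74 at -0.48 ± 0.54 (95% interval -1.58 to 0.62). Of 12 chemokine and cytokine genes 8 were lower (median -0.04). Cxcl10, an interferon-induced chemokine for T cells, was at 6.58 to 36.8 (median 17.9) normalized counts in RGFP966 retinas and 13.2 to 80.9 (median 17.9) in vehicle retinas (-0.53 ± 0.54, 95% interval -1.64 to 0.59). The T cell chemokine Ccl5 was at -0.64 ± 0.45 (95% interval -1.57 to 0.30), the microglial growth factor Il34 at 0.26 ± 0.21 and the adhesion molecule Icam1 at -0.23 ± 0.20. The 14 NF-kB factors and inhibitors had a median of -0.022, and the 8 other leukocyte markers -0.036.

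Ganglion cell transcripts did not differ beyond the spread between retinas. Of 25 markers 18 were lower with a median of -0.055, which ran from -0.19 without RGFP966 ONC male C to -0.014 without RGFP966 ONC male A. Their summed counts were 6142 to 10260 (median 6759) in RGFP966 retinas and 6357 to 9729.7 (median 7738) in vehicle retinas. Nefl, the light neurofilament of long axons, was at 1157 to 2407 (median 1378) normalized counts in RGFP966 retinas and 1248 to 2348 (median 1664) in vehicle retinas. For Nefl the groups overlapped and the difference was -0.10 ± 0.14 (95% interval -0.39 to 0.19). Rbpms, an RNA-binding protein used to count ganglion cells, was at 95.1 to 176 (median 124) normalized counts in RGFP966 retinas and 93.8 to 154 (median 129) in vehicle retinas (0.062 ± 0.17, 95% interval -0.29 to 0.41). The transcription factor Pou4f1 was at 12.7 to 70.1 (median 46.3) normalized counts in RGFP966 retinas and 26.5 to 57.4 (median 42.7) in vehicle retinas. For Pou4f1 the groups overlapped and the difference was 0.012 ± 0.34 (95% interval -0.68 to 0.71). Opn4, the melanopsin of intrinsically photosensitive ganglion cells, was the 1 marker of 25 at an unadjusted p under 0.05 (2.55% of all genes). It was at 5.18 to 29.3 (median 16.2) normalized counts in RGFP966 retinas and 10.9 to 51.7 (median 25.9) in vehicle retinas. For Opn4 the groups overlapped and the difference was -0.84 ± 0.38 (95% interval -1.63 to -0.052). Spp1, a secreted protein of alpha ganglion cells and of activated microglia, was at 176 to 340.4 (median 197) normalized counts in RGFP966 retinas and 258 to 322 (median 274) in vehicle retinas. For Spp1 5 RGFP966 retinas lay below all vehicle retinas and 1 above them (-0.32 ± 0.23, 95% interval -0.80 to 0.15), and the calcium buffer Pvalb was at -0.33 ± 0.24. The intervals for Nefl and Rbpms exclude a 2-fold difference.

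The lists of injury and stress genes had medians near 0. The 21 axon injury genes had a median of -0.0086, with 17 intervals within 1 log2 unit. Atf3, an injury-induced transcription factor, was at 229.8 to 463 (median 298) normalized counts in RGFP966 retinas and 201 to 386 (median 298) in vehicle retinas (0.10 ± 0.18, 95% interval -0.28 to 0.47). Sprr1a, a gene of regenerating axons, was at 41.8 to 129 (median 83.8) normalized counts in RGFP966 retinas and 53.5 to 129.6 (median 116) in vehicle retinas. For Sprr1a the groups overlapped and the difference was -0.31 ± 0.47 (95% interval -1.28 to 0.66). Klf4, which restrains axon growth, was at -0.24 ± 0.26 and Csrp3 at 0.23 ± 0.25. In the integrated stress list (19 genes, median -0.062) Atf5, a transcription factor of the pathway, was at 387 to 517 (median 419) normalized counts in RGFP966 retinas and 453 to 556 (median 481) in vehicle retinas. For Atf5 6 of 7 RGFP966 retinas lay below every vehicle retina (-0.19 ± 0.081, 95% interval -0.36 to -0.028). Its relative Atf4 was at -0.11 ± 0.073 and the amino acid transporter chain Slc3a2 at -0.089 ± 0.062. Of the p53 and apoptosis list (16 genes, median -0.022) the cell cycle inhibitor Cdkn1a was at -0.24 ± 0.27 (95% interval -0.79 to 0.31) and the survival factor Bcl2l1 (BCL-XL) at -0.16 ± 0.08 (95% interval -0.32 to 0.006). Among 11 heat shock genes (median -0.0087) the co-chaperone Bag3 was at 99.95 to 165 (median 123) normalized counts in RGFP966 retinas and 150.1 to 229 (median 156) in vehicle retinas, with 5 RGFP966 retinas below all vehicle retinas (-0.33 ± 0.12, 95% interval -0.58 to -0.088). The 15 immediate early genes had a median of -0.038, the 12 glucocorticoid targets -0.031, with the transcription factor Zbtb16 at -0.49 ± 0.26 (95% interval -1.01 to 0.04), and the 9 hypoxia genes -0.032.

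Of the photoreceptor and interneuron lists, that of cones lay farthest from 0, with a median of 0.17. Of 17 rod genes 16 were lower but by small amounts, from -0.10 to 0.03 with a median of -0.06 (-0.029 without vehicle ONC male A). In uncrushed retinas all 17 were lower with a median of -0.10. Without the uncrushed vehicle retina male D, whose summed rod markers were 3052200 normalized counts against 2016600 to 2250500 in the other uncrushed vehicle retinas, 12 of 17 were lower and the median was -0.031. The rod transcription factor Nr2e3 was at -0.10 ± 0.07, the channel subunit Cnga1 at -0.08 ± 0.068 and the arrestin Sag at -0.079 ± 0.082. Of 11 cone genes 9 were higher with a median of 0.17, and in uncrushed retinas all 11 were higher with a median of 0.20 (3 were lower, and the median was 0.12, without uncrushed vehicle male D). In crushed retinas 6 of the 11 were lower in females (median -0.0016) and 2 in males (median 0.21). The cone transducin Gnat2 was at 2284 to 3551 (median 2798) normalized counts in RGFP966 retinas and 2237 to 2769 (median 2530.4) in vehicle retinas, with 4 RGFP966 retinas above all vehicle retinas (0.17 ± 0.068, 95% interval 0.029 to 0.31). The gamma subunit Gngt2 differed by 0.25 ± 0.12 (95% interval -0.00027 to 0.50). The cone arrestin Arr3 was at 5826 to 7734 (median 7259.9) normalized counts in RGFP966 retinas and 5539 to 7109 (median 6104) in vehicle retinas. For Arr3 the groups overlapped and the difference was 0.20 ± 0.11 (95% interval -0.02 to 0.42). Bipolar markers had a median of 0.038 over 15 genes, with Cabp5 at 0.21 ± 0.11, the ON bipolar glutamate receptor Grm6 at 0.19 ± 0.10 and Gng13 at 0.12 ± 0.11. Amacrine markers had a median of -0.032 over 15 genes. Somatostatin (Sst) was at 0.55 ± 0.27 (95% interval 0.004 to 1.09) and the vesicular transporter Slc17a8 at 0.20 ± 0.13. Tyrosine hydroxylase (Th) of dopaminergic cells was at 15.1 to 35.6 (median 23.9) normalized counts in RGFP966 retinas and 27.3 to 37.9 (median 35.7) in vehicle retinas (-0.52 ± 0.30, 95% interval -1.13 to 0.10). Horizontal cell and synapse lists had medians of 0.004 over 6 and 0.026 over 17 genes.

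Vessel and matrix genes held a few of the more distant values. Of 10 pericyte and smooth muscle genes 8 were higher (median 0.19, and 0.18 in uncrushed retinas), with the myosin light chain kinase Mylk at 0.17 ± 0.09 (95% interval -0.01 to 0.36) and the potassium channel subunit Abcc9 at 0.25 ± 0.14 (95% interval -0.046 to 0.55). The 13 endothelial genes had a median of 0.091. Of 21 matrix genes 3 were lower at an unadjusted p under 0.05 (2.55% of all genes in either direction), although the list median was 0.046. Among the 3 were the collagen Col1a2 (-0.76 ± 0.28, 95% interval -1.33 to -0.18) and the matrix glycoprotein Sparc (-0.16 ± 0.076, 95% interval -0.32 to -0.0021). Col1a2 was at 46.2 to 169 (median 74.4) normalized counts in RGFP966 retinas and 86.7 to 244 (median 112) in vehicle retinas, so that 5 RGFP966 retinas lay below all vehicle retinas and the other 2 did not. The mitotic cyclin Ccnb2 was higher at low counts, 18.5 to 37.0 (median 25.2) normalized counts in RGFP966 retinas and 6.74 to 19.2 (median 14.9) in vehicle retinas, with 6 of 7 RGFP966 retinas above all vehicle retinas (0.76 ± 0.27, 95% interval 0.20 to 1.32), while the 9 cell cycle genes had a median of -0.12 (-0.0047 without RGFP966 ONC male C). Of 3 oligodendrocyte genes tested, the myelin gene Mbp was at 329.8 to 693 (median 410.1) normalized counts in RGFP966 retinas and 305 to 403 (median 349) in vehicle retinas (0.30 ± 0.12, 95% interval 0.047 to 0.54). Olig1 and Olig2, which define the lineage, were at 0 in all 7 RGFP966 and in 5 of 6 vehicle retinas. The list with the median farthest from 0 was that of lens, where 15 of 16 genes were higher (median 1.11) in crushed and the same number in uncrushed retinas (median 1.05). The uncrushed value rests on single retinas. The lens markers summed to 76695 normalized counts in uncrushed RGFP966 male A and 539.9 to 1484 in the other uncrushed RGFP966 retinas, and to 14933 in uncrushed vehicle female A and 615 to 818 in the other uncrushed vehicle retinas. The uncrushed median was -0.34 without RGFP966 male A, with 11 of 16 genes lower, and 2.01 without vehicle female A. In crushed retinas the list's intervals were wide, and 1 of the 16 lay within 1 log2 unit. The crystallin Crygc was at 0 to 215 (median 47.0) normalized counts in RGFP966 retinas and 0 to 37.9 (median 3.76) in vehicle retinas (2.14 ± 1.27, 95% interval -0.46 to 4.75), with 1 retina of each group at 0 and 4 RGFP966 retinas above all vehicle retinas. The lens filament Bfsp1 was at 4.24 to 37.3 (median 18.6) normalized counts in RGFP966 retinas and 0.880 to 10.7 (median 5.66) in vehicle retinas. For Bfsp1 the groups overlapped and the difference was 1.44 ± 0.91 (95% interval -0.44 to 3.31).

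Metabolic genes gave 1 list with all members on 1 side. All 11 mitochondrially encoded genes were higher in RGFP966 retinas, from 0.11 to 0.35 with a median of 0.18 (0.08 without RGFP966 ONC male A and 0.26 without vehicle ONC male D). Of them 2 were so at an unadjusted p under 0.05 (2.55% of all genes in either direction). mt-Co2, a subunit of cytochrome oxidase, was at 11691 to 33529.5 (median 19709) normalized counts in RGFP966 retinas and 9928 to 27121 (median 14031) in vehicle retinas (0.35 ± 0.15, 95% interval 0.041 to 0.67). mt-Nd3, of complex I, was at 12276 to 32070.2 (median 21464) normalized counts in RGFP966 retinas and 11823 to 28403 (median 14343) in vehicle retinas (0.31 ± 0.14, 95% interval 0.032 to 0.60). In both, the groups overlapped, and mt-Nd6 stood at 0.22 ± 0.14 (95% interval -0.08 to 0.51). The female retinas carried the high values of mt-Co2, at 29398, 33529.5 and 28094 under RGFP966 and 27121 and 12621 under vehicle, and without vehicle ONC female C the difference was 0.18. In uncrushed retinas 9 of the 11 were lower (median -0.08; 6 were lower, with a median of -4.1e-05 without uncrushed vehicle female C), and with quantile normalization the median in crushed retinas was 0.082. Mitochondrial transcripts are cut from long shared precursors and vary together, so the 11 are not independent. Nuclear genes of oxidative phosphorylation had a median of -0.028 over 16 genes, with the electron carrier Cycs at 0.12 ± 0.081 (95% interval -0.041 to 0.29), and ribosomal proteins -0.016 over 18. Fatty acid oxidation had a median of -0.03 over 14 genes, with Pdk4, which turns fuel use from glucose to fat, at 0.39 ± 0.25 (95% interval -0.11 to 0.89). The cholesterol list had a median of -0.015 over 25 genes, all with intervals within 1 log2 unit; among its enzymes Sc5d was at -0.26 ± 0.14, Ebp at -0.23 ± 0.13 and Msmo1 at 0.14 ± 0.084.

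**Figure D3:**
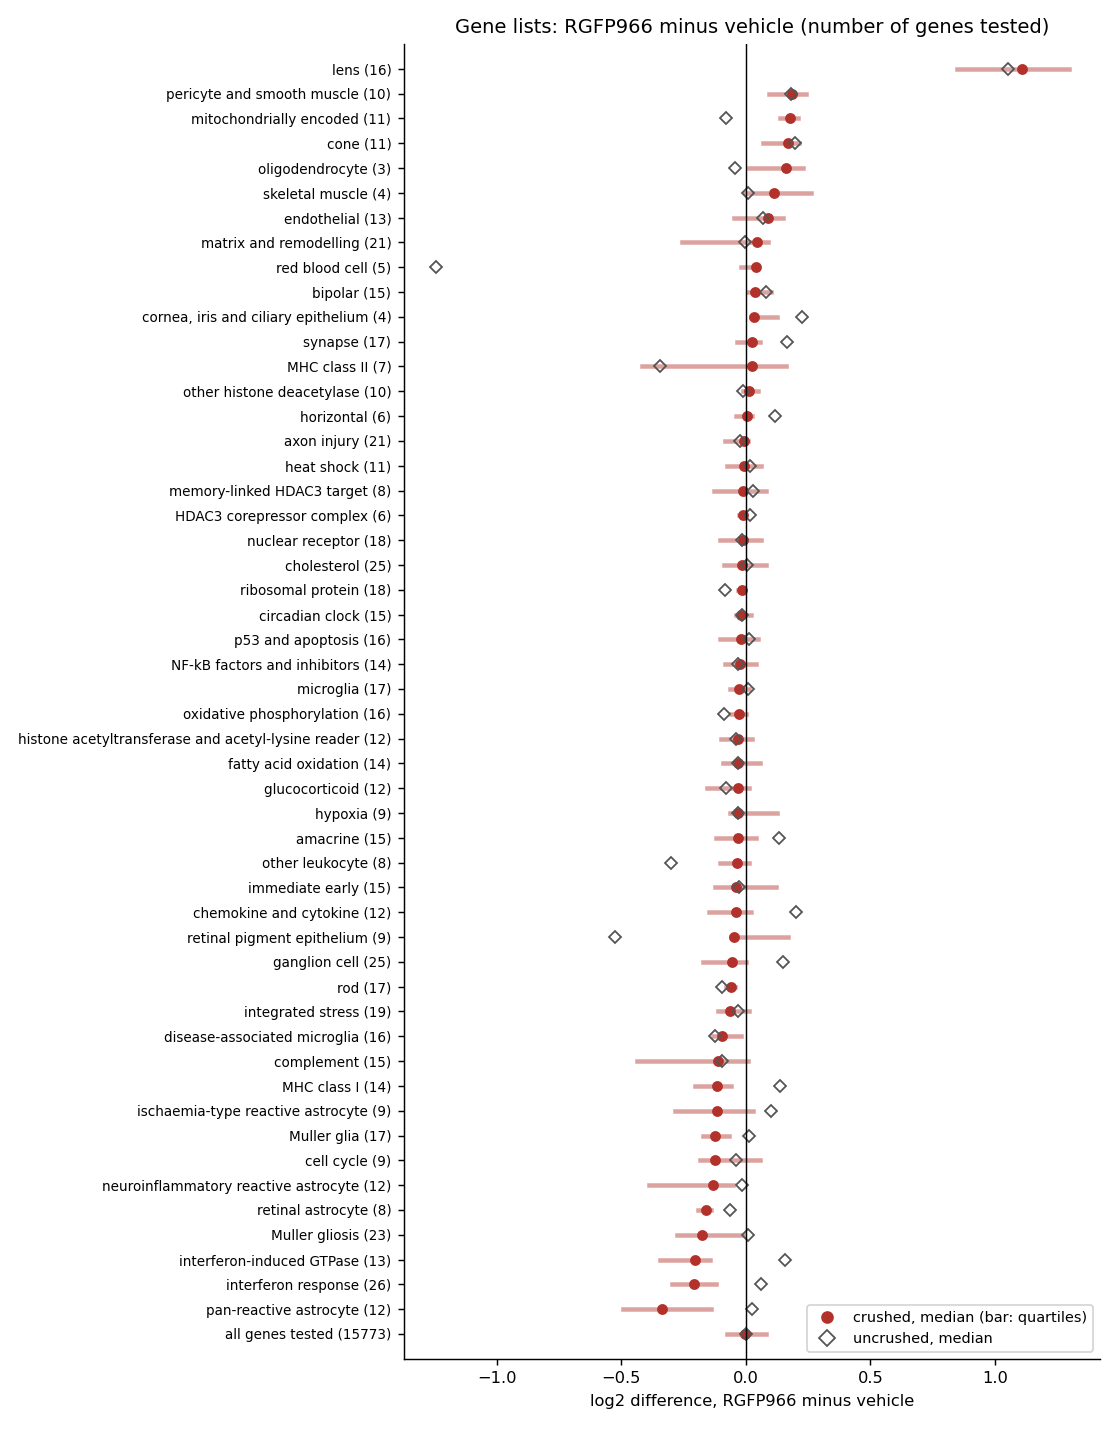
Median log2 difference, RGFP966 minus vehicle (horizontal axis), of 51 gene lists and of all genes tested (rows, with the number of genes) in crushed retinas (filled circles, bars from the lower to the upper quartile of the genes) and in uncrushed retinas (open diamonds). Lens genes lie highest, at 1.11 and 1.05, red blood cell genes lowest in uncrushed retinas, at -1.24, and the pan-reactive astrocyte list has the lowest crushed median, -0.33.

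Over all 51 lists, 635 distinct genes were tested, of which 20 (3.15%, against 2.55% over all genes) were at an unadjusted p under 0.05, 14 lower and 6 higher, and 60.3% were lower in RGFP966 retinas. No listed gene had groups without overlap.

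The 12 genes with the smallest p-values in each direction were taken among those with a mean of 50 or more and 1 sign in both sexes. Symbols of the form Gm plus digits or ending in Rik were left out. All 24 lay outside these lists, which held 635 of the 15773 genes tested. Slc8b1, the sodium and calcium exchanger of the inner mitochondrial membrane (mm10 chromosome 5, 120511168 to 120534024), was at 116 to 189.6 (median 138) normalized counts in RGFP966 retinas and 144 to 355 (median 203) in vehicle retinas. The lower vehicle retinas lay among the RGFP966 retinas and 4 above them (-0.60 ± 0.14, 95% interval -0.89 to -0.30, adjusted p = 0.9998). Bach2, a transcriptional repressor best known in lymphocytes (mm10 chromosome 4, 32238804 to 32586108), was higher, at 73.2 to 417 (median 165) normalized counts in RGFP966 retinas and 53.5 to 103 (median 81.8) in vehicle retinas. The vehicle retinas spanned the narrower range, 6 of 7 RGFP966 retinas lay above all of them, and RGFP966 ONC male A alone reached 417 (1.15 ± 0.28, 95% interval 0.57 to 1.73, adjusted p = 0.9998). N4bp2, a binding partner of the ubiquitin ligase NEDD4, was at 1243 to 1597 (median 1486) normalized counts in RGFP966 retinas and 783 to 1597 (median 1075) in vehicle retinas (0.43 ± 0.12, 95% interval 0.19 to 0.67); 1 vehicle retina lay near the top of the RGFP966 range. The cyclic nucleotide phosphodiesterase Pde10a was at 346 to 627 (median 488) normalized counts in RGFP966 retinas and 278 to 369.6 (median 289.7) in vehicle retinas. For Pde10a the groups overlapped and the difference was 0.63 ± 0.18 (95% interval 0.26 to 0.999). Among the other higher genes were Mdc1, a mediator of the DNA damage checkpoint (0.30 ± 0.086), Apela, a ligand of the apelin receptor (0.38 ± 0.12), Rassf8 (0.27 ± 0.083), Ehbp1l1 (0.63 ± 0.19) and Pgm3, an enzyme of UDP-N-acetylglucosamine synthesis (0.35 ± 0.11). The rest of the 12 were the microtubule-associated Map1s (0.32 ± 0.10), the xylulose kinase Xylb (0.42 ± 0.14), the pipecolic acid oxidase Pipox (0.59 ± 0.20) and Dzank1 (0.33 ± 0.11). On the lower side, Mzf1, a zinc finger transcription factor, was at 219 to 311 (median 245) normalized counts in RGFP966 retinas and 295 to 409.8 (median 327) in vehicle retinas (-0.41 ± 0.11, 95% interval -0.63 to -0.19), with 6 RGFP966 retinas below all vehicle retinas. Asb7, a substrate adaptor of a ubiquitin ligase, was at -0.44 ± 0.12, the Dickkopf receptor Kremen1 at -0.26 ± 0.072, the glucagon-like peptide 2 receptor Glp2r at -0.31 ± 0.089 and the mitochondrial GTPase Mtg1 at -0.46 ± 0.13. The ubiquitin-conjugating enzyme Ube2a was at -0.27 ± 0.08, the ESCRT adaptor Pdcd6ip (ALIX) at -0.28 ± 0.087 and Tmem229b at -0.29 ± 0.094; Spsb3, Shisa5 and Ddx3y complete the 12.

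**Figure D4:**
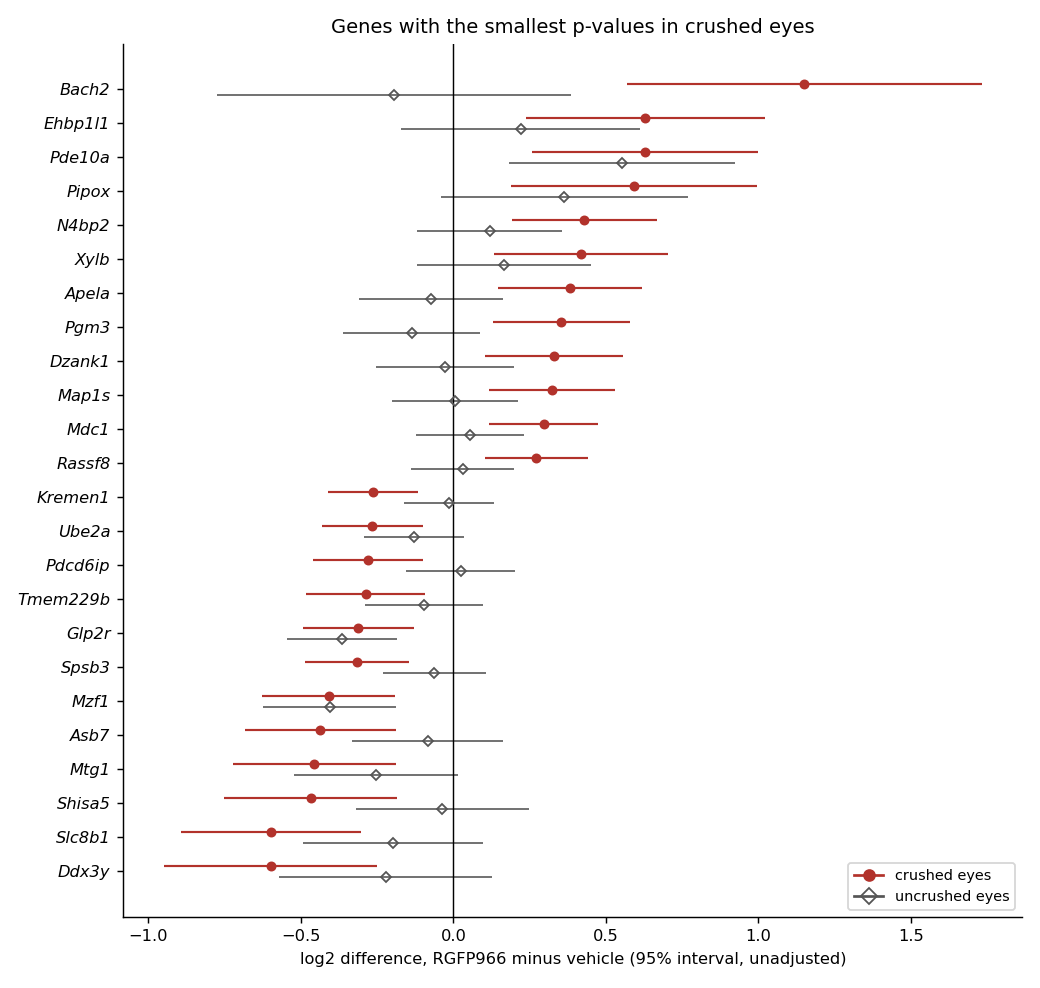
Log2 difference, RGFP966 minus vehicle (horizontal axis), with its unadjusted 95% interval for the 24 genes with the smallest p-values in crushed eyes after the filters given in the text (filled circles) and for the same genes in uncrushed eyes (open diamonds). Crushed intervals leave out 0 because the genes were chosen for it; in uncrushed eyes Pde10a (0.55 ± 0.18), Mzf1 (-0.40 ± 0.11) and Glp2r (-0.36 ± 0.089) lie on the same side with intervals that also leave out 0.

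In 5 genes (0.0317% of those tested) the groups did not overlap, and in each the RGFP966 retinas were the lower; these genes are named for that. Spsb3, a substrate adaptor of a ubiquitin ligase (mm10 chromosome 17, 24886643 to 24892152), was at 818, 810.4, 732, 732, 787, 752, 699.8 normalized counts in the 7 RGFP966 retinas and at 883, 1000.1, 1096, 965, 828, 918 in the 6 vehicle retinas (-0.32 ± 0.083, 95% interval -0.49 to -0.15). Shisa5, an endoplasmic reticulum protein linked to p53-dependent cell death (mm10 chromosome 9, 109038565 to 109057777), was at 188, 159.8, 208, 212, 171, 233, 206 in RGFP966 and 329, 271, 249, 249, 300.4, 245 in vehicle retinas (-0.47 ± 0.14, 95% interval -0.75 to -0.18). The gap between the groups was small in both: the highest RGFP966 and lowest vehicle retina were 818 and 828 for Spsb3 and 233 and 245 for Shisa5. Mtfp1, a protein of mitochondrial fission (mm10 chromosome 11, 4091480 to 4095445), was at 573 to 691 (median 629.9) normalized counts in RGFP966 retinas and 704 to 741 (median 724) in vehicle retinas. For Mtfp1 the difference was -0.19 ± 0.069 (95% interval -0.33 to -0.049). Nr2f6, an orphan nuclear receptor (mm10 chromosome 8, 71374123 to 71381960), was at 295 to 354 (median 315) normalized counts in RGFP966 retinas and 355 to 409 (median 377) in vehicle retinas. For Nr2f6 the difference was -0.22 ± 0.079 (95% interval -0.39 to -0.061). Pbxip1, a binding partner of PBX transcription factors (mm10 chromosome 3, 89436706 to 89450952), was at 1611 to 1916 (median 1827) normalized counts in RGFP966 retinas and 1967 to 2131 (median 2030.4) in vehicle retinas. For Pbxip1 the difference was -0.18 ± 0.072 (95% interval -0.33 to -0.035). All 5 had an adjusted p of 0.9998 by limma. How many genes chance alone would separate was not computed, so their number is a description and no sign of a drug difference. In uncrushed retinas their differences were -0.062 ± 0.083 for Spsb3, -0.036 ± 0.14 for Shisa5, -0.051 ± 0.069 for Mtfp1, 0.042 ± 0.079 for Nr2f6 and 0.078 ± 0.072 for Pbxip1.

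**Figure D5:**
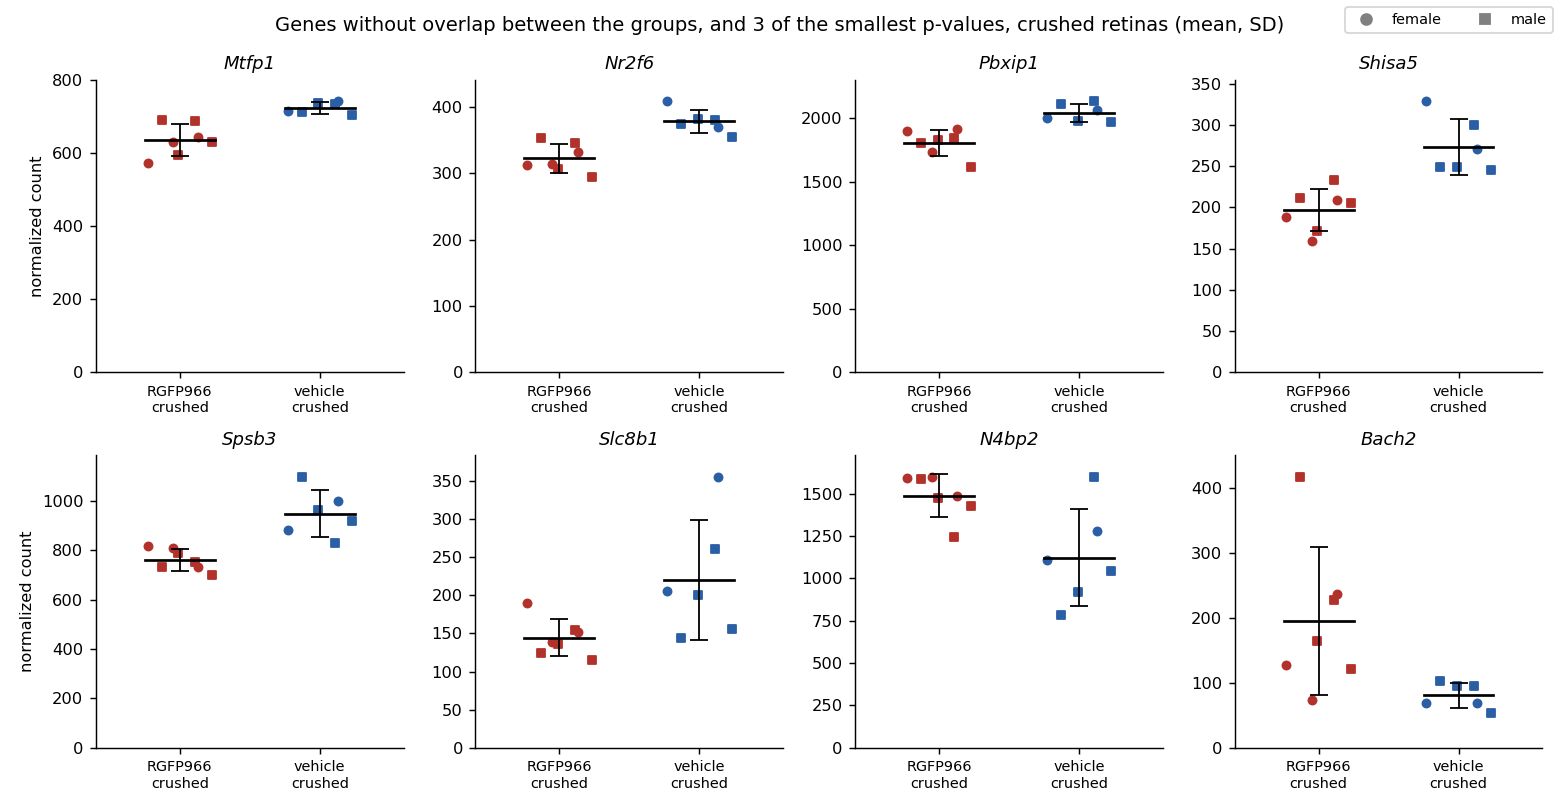
Normalized count in each crushed retina (vertical axis from 0) of the 5 genes whose groups do not overlap and of Slc8b1, N4bp2 and Bach2, with RGFP966 on the left and vehicle on the right; circles are females, squares males, bar and whiskers the mean and SD (n = 7 and 6). For Shisa5 the RGFP966 retinas end at 233 and the vehicle retinas begin at 245, whereas Bach2 in RGFP966 retinas spreads up to 417.

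In the uncrushed eyes of the same mice RGFP966 and vehicle differed in no gene past the threshold either (smallest adjusted p = 0.73 by limma), with 782 genes (4.96%) at an unadjusted p under 0.05. The interaction, which asks whether the drug difference is another one in crushed than in uncrushed eyes, gave no gene (smallest adjusted p = 0.9996) and 327 (2.07%) at an unadjusted p under 0.05. The crushed and uncrushed comparisons use retinas of the same mice, and the interaction is made of both. Gfap had a difference of 0.20 ± 0.20 in uncrushed retinas and an interaction of -0.64 ± 0.28, H2-T23 0.20 ± 0.17 and -0.59 ± 0.25, and Oasl2 0.072 ± 0.17 and -0.53 ± 0.24. Fgf2 had -0.035 ± 0.12 and -0.32 ± 0.17, Serping1 -0.48 ± 0.20 and -0.046 ± 0.29, Serpina3n -1.63 ± 0.43 (1 uncrushed vehicle retina being at 923) and 0.95 ± 0.60, and Bach2 -0.19 ± 0.28 and 1.35 ± 0.40. Side by side, the medians in crushed and uncrushed retinas were -0.33 and 0.026 for pan-reactive genes, -0.18 and 0.0088 for gliosis and -0.21 and 0.063 for the interferon response. They were -0.20 and 0.16 for the GTPases and -0.12 and 0.14 for MHC class I. Lists outside these had lower crushed medians too. They were -0.055 and 0.15 for ganglion cells, -0.04 and 0.20 for chemokines and cytokines, and -0.032 and 0.13 for amacrine cells. Without uncrushed vehicle male D the uncrushed medians were -0.026 for ganglion and -0.019 for amacrine cells. Mitochondrially encoded genes went the other way, at 0.18 and -0.08. Of the uncrushed medians, that of pan-reactive genes was -0.022 without RGFP966 male A, that of gliosis -0.05 without vehicle male C, that of the interferon response 0.036 without RGFP966 female B and that of the GTPases 0.06 without vehicle male B. At an unadjusted p under 0.05 the interaction held 5 of 26 interferon-response genes, 4 of 13 GTPases and 1 of 12 pan-reactive genes, against 2.07% of all genes, and none of them passed. The uncrushed comparison held 4, 3 and 2 genes of these lists at that p, against 4.96% of all genes. Gbp2, for example, was at 0.60 ± 0.18 in uncrushed and -0.24 ± 0.18 in crushed retinas, an interaction of -0.84 ± 0.25.

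The sexes were also compared within a model of 8 groups, in which females and males share 1 estimate of the spread. In males no gene passed (473 at an unadjusted p under 0.05 by limma), and in females 1 of 15773 did (0.00634%): Ddx3y, a Y-linked RNA helicase (mm10 chromosome Y, 1260771 to 1286629), at -1.36 ± 0.20 with an adjusted p of 0.0061. Its values in female retinas were 5.02, 5.37 and 9.0 normalized counts under RGFP966 and 16.1 and 19.4 under vehicle, while male retinas held 885 to 1016 under RGFP966 and 979.8 to 1096 under vehicle. In a fit of the 10 female libraries alone, added after the data were seen, the same difference had an SE of 0.51 and an adjusted p of 0.45 (limma). That fit called 1 gene, Gm10297, named after its values were seen, which was at 109, 54.4 and 82.6 normalized counts in crushed RGFP966 females, was listed at 0 in both crushed vehicle females and had an adjusted p of 0.0085. In uncrushed females it was at 38.8, 99.4 and 35.1 under RGFP966 and 10.0 and 53.2 under vehicle. Male retinas held 16.7 in crushed RGFP966 male B, 81.5 in uncrushed RGFP966 male A, 65.8 in uncrushed vehicle male C and 0 elsewhere. In a fit of the 16 male libraries alone no gene passed (380 at an unadjusted p under 0.05). Females carry no Y chromosome, and the few counts assigned there were not traced to a source. The sex by drug interaction gave no gene (smallest adjusted p = 0.24), with 861 (5.46%) at an unadjusted p under 0.05. Fgf2 was at -0.74 ± 0.16 in females and -0.14 ± 0.13 in males, Gfap at -0.62 ± 0.33 and -0.32 ± 0.25, Serpina3n at -1.16 ± 0.68 and -0.40 ± 0.53 and Oasl2 at -0.49 ± 0.27 and -0.41 ± 0.21. C3 was at 0.11 ± 0.64 in females and -1.11 ± 0.50 in males, and Stat3 at -0.17 ± 0.12 and 0.18 ± 0.10. The pan-reactive list had a median of -0.44 in females and -0.26 in males, with 11 of 12 genes lower in each. The interferon list had -0.16 and -0.25, and the lens list 0.34 and 1.53. Müller glia markers had -0.24 in females and -0.038 in males, with 14 and 10 of 17 lower. Disease-associated microglia genes had -0.24 and -0.028, with 13 and 9 of 16 lower. For gliosis genes the medians were -0.13 and -0.16, with 15 and 20 of 23 lower. Cp was at -0.51 ± 0.18 in females and -0.03 ± 0.14 in males. With 3 against 2 female retinas, the female values rest on few mice.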

How the data were processed

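RNA-seq of retina was analysed from the 26 libraries of 13 mice whose columns carry a name of their own. The other 2 of the 28 columns share a name and were not used. Neither retina of vehicle female B therefore entered, so a crushed vehicle female is missing from the comparison. The deposited table holds normalized counts per gene (a signal with no raw counts), made by the authors with kallisto 0.46.1, mm10 and DESeq2 (version not given), per the submitters' processing notes. Normalization removed the original depth, which is unknown here, so totals per library do not show it. A table row is a gene symbol; 26 symbols turned into dates (0.115% of the total) were left out.

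A gene was tested where its mean over the 26 libraries reached 10, with limma 3.58.1 (R 4.3.3) on log2(normalized count + 1), with empirical Bayes and a mean trend, in 1 model with 4 treatment-by-crush groups and sex as a covariate; the sexes were compared within a model of 8 groups with a shared spread. Benjamini-Hochberg adjustment ran over the whole set of tested genes, and 0.05 was the threshold. Fold changes on this scale understate those of low genes. The procedure was run on simulated data in which genes varied independently and normally. Differences were set there only in genes with a spread below the median. The simulation thus does not show what could be detected in more variable genes. Which animals share a litter or batch is not given, and separate letters within a group and sex were taken as separate mice. The labels of the uncrushed retina RGFP966 female A disagree on the crush; its title and condition were followed.

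The comparison and the 51 gene lists were chosen with earlier results of these data known, so that counts over lists are descriptions. Named genes are the 12 with the smallest p in each direction (those with a mean of 50 or more and 1 sign in females and males), up to 3 of each list with the smallest p, a set of markers and genes behind counts of 5 or fewer. A few genes that this rule names are not reported here. Gene positions are those of GENCODE vM21 on mm10. Alternatives changed the pseudocount, filter, scaling, blocks, weights and libraries.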

Additional observations from a re-analysis of the deposited data

Results flagged for a closer look

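In the crushed retinas, 24 of 276 groups of values (138 genes, RGFP966 and vehicle groups each) held 1 retina that stood apart from the rest of its group by Dixon's criterion. Chance alone gives about 5% of groups where values are normally spread and independent. Here the criterion was applied to counts without a log scale, and the genes were chosen and partly vary together. The number is thus a description and cannot be read as an excess over 5%. Values are normalized counts, each followed by that of the nearest other retina of its group.

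Among glial and immune genes, RGFP966 retinas stood apart for Apoe at 18105 in female C (next 12832), Gbp2 at 133 in female B (next 179), Klf4 at 156 in male A (next 83.7) and Ptx3 at 4.32 in male A (next 15.5). Ptx3 and Gbp2 were apart on the low side. Vehicle retinas stood apart for Aif1 at 91.8 in male D (next 49.5), C5ar1 at 77.0 in female A (next 35.9), Cxcl10 at 80.9 in male B (next 30.2), Gbp2 at 405 in male B (next 227) and Tm4sf1 at 226 in female A (next 93.6).

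Among neuronal genes, RGFP966 retinas stood apart for Cabp5 at 860.0 in male C (next 617), Pvalb at 19.2 in male D (next 10.1) and Slc17a8 at 368 in male C (next 263). Among lens, matrix and myelin genes, RGFP966 retinas stood apart for Col1a2 at 169 in female C (next 89.5), Crygb at 158 in female A (next 67.8), Crygc at 215 in female A (next 91.1) and Mbp at 693 in male A (next 481), and a vehicle retina for Crygb at 53.2 in female C (next 16.5).

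Among metabolic and stress genes, RGFP966 retinas stood apart for Atf5 at 517 in female B (next 442), Cycs at 679 in male B (next 827), Ebp at 316 in male C (next 247) and Kat5 at 1372 in male B (next 1206), of which Cycs was on the low side. Vehicle retinas stood apart for Bag3 at 229 in male B (next 177), mt-Co2 at 27121 in female A (next 15207) and mt-Nd3 at 28403 in female A (next 15552); both mitochondrial transcripts were high in the same female. None of the genes passed the test with these retinas included.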

How the results depend on the processing

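No gene passed the threshold (limma) in 27 of 29 alternatives to the comparison in crushed eyes, which changed the pseudocount, the filter, the scaling, the model and the libraries; 1 gene, Ddx3y, did for females within the model of 8 groups, and 1 gene, Gm10297, in a fit of the female libraries alone. That fit, its counterpart in males and uncrushed list medians without 1 retina were chosen after seeing the data. The number at an unadjusted p under 0.05, 403 as reported, ran from 316 to 1493 over these alternatives; it was 1493 in the fit of female libraries, 936 with array weights, 824 without the filter on low values, 727 without RGFP966 male C and 803 without vehicle male D, and with 1 retina left out at a time it ran from 327 to 803 with 0 genes past the threshold each time. The smallest adjusted p was 0.14 without vehicle male C, 0.52 with array weights and 0.63 with crushed retinas alone. The uncrushed comparison, the drug by crush interaction and the sex by drug interaction gave 0 genes under each of the 4 alternatives run for them (another pseudocount, quantile normalization, the mouse as a replicate block and robust empirical Bayes), with 753 to 787 and 295 to 343 genes at an unadjusted p under 0.05 for the first pair.

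Retinas of the same sex and letter in the RGFP966 and vehicle groups did not deviate together (r from -0.23 to 0.036, 0 of 6 pairs over 0.1). Both eyes of a mouse, a pair by their labels, gave r from -0.30 to 0.21, with 2 of 13 pairs over 0.1. The measure missed most pairs of eyes, so it cannot tell whether the letters pair mice between groups. With sex and letter as a replicate block (12 retinas in 6 pairs) 0 genes passed, 395 were at an unadjusted p under 0.05 and the smallest adjusted p was 0.37. With the mouse as a block over its eyes (correlation -0.029) 0 genes passed and 405 were under 0.05.

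Of the 138 genes with values by alternative, 20 had at least 1 value on the other side of 0, 44 values in all; 13 of these had moved by more than 1 SE, all of them values of 1 sex in the model of 8 groups; the cause was not tested. In males these log2 differences were Ncor1 0.0801, Hdac5 -0.00427, Csrp3 -0.0882, Gngt2 -0.00219 and Gng13 -0.00194. In females they were Rarg 0.17, Ptx3 0.034, Stat3 -0.17, C3 0.11, Il34 -0.031, Pvalb 0.24, Gnat2 -0.00163 and Pdk4 -0.0587. Scaling to the same total and quantile normalization moved the median over all genes by -0.0033 and 0.00093.

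The files hold no raw counts, so counting error cannot be given. With 7 against 6 mice, and 3 against 2 females, differences well under 2-fold in variable genes were not detectable. None of the 80 genes with an estimate beyond 2-fold passed either. Ifi44, for example, was at -1.07 ± 0.37 with an adjusted p of 0.9998 (limma). The labels name no batch or litter.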
